A study of Canis lupus familiaris with 24 samples.

Results

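The endothelial adhesion molecules examined here were the 8 genes SELE, SELP, VCAM1, ICAM1, ICAM2, PECAM1, CDH5 and CLDN5, out of 11963 genes that the array names with a single symbol. They were chosen by symbol: every probe set annotated to exactly 1 of these genes was taken, which gave 13 probe sets of 22283 on the array, and 12 of the 13 were called Present on at least 6 of 24 arrays and entered the tests. Lung RNA from 3 mongrel dogs was hybridised to a human expression array, 1 array per piece of lung. In each dog the left lung was injured by washing it 4 times with warm saline (20 ml/kg), and the right lung was the control. Both lungs of a dog were then ventilated for 5 h at 25 breaths/min under pentobarbital anaesthesia and pancuronium, and pressure at the end of expiration (PEEP, 5 cmH2O) was added to the control lung alone. Lavage, side of the chest and absence of added PEEP therefore came together in what is called the injured lung, and the effects of these 3 differences cannot be told apart. Pieces came from the dependent part (the lower under gravity) and the nondependent part of the apex and of the base of each lung, which gave 8 groups of 3 arrays, 1 per dog. A site from the middle of the base was not analysed here.

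Endothelial adhesion molecules line the route by which leukocytes leave the blood. Selectins slow passing leukocytes so that they roll, members of the immunoglobulin superfamily bind leukocyte integrins and bring the cells to a halt, and proteins of the junctions between endothelial cells are loosened or engaged as the cells pass through. In inflamed lung, cytokines acting through NF-kB are known to induce E-selectin, VCAM-1 and ICAM-1, whereas ICAM-2, PECAM-1, VE-cadherin and claudin-5 are present on resting endothelium. All 8 symbols had an entry among the dog genes that RefSeq lists for UU_Cfam_GSD_1.0. There PECAM1 and ICAM2 lie on chromosome 9 with 2 protein-coding genes, TEX2 and ERN1, between them.

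No member passed the test in any of the 11 comparisons made. Over the mean of the 4 sites, 6 of the 12 tested probe sets were higher in injured than in control lung and 6 were lower, 0 had a limma adjusted p under 0.05, and 2 (SELE and VCAM1) had an unadjusted p under 0.05. Across all 20034 tested probe sets, 42 passed in that comparison (0.21%) and 1944 had an unadjusted p under 0.05 (9.7%). Taking the brightest probe set of each gene, 3 of the 8 genes were higher and 5 lower, with log2 changes from -0.16 (CDH5) to 0.72 (SELE). Their median was -0.00, beside 0.03 over all probe sets. At single sites, 2 of the 12 had an unadjusted p under 0.05 at the apex dependent site (6.94% of all probe sets did), 1 at the apex nondependent site (5.41%), 1 at the base dependent site (6.21%) and 0 at the base nondependent site (8.41%). Among the contrasts of position and level, the members with an unadjusted p under 0.05 numbered 0 for the injury effect by position (5.43% of all probe sets) and 1 for the injury effect by level (8.26%). They numbered 1 for position in the injured lung (5.27%) and 1 in the control lung (4.79%), and 0 for level in the injured lung (9.03%) and 2 in the control lung (5.16%). Levels are signals of human probes on dog RNA, so values of the members were compared between samples for 1 probe set and not between genes. Summed signals of marker lists, given below, weigh the brightest probe sets most. In pieces of whole lung, fewer endothelial cells and less RNA per endothelial cell cannot be told apart.

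Of 24 listed endothelium markers, such as VWF and KDR, 22 were tested. Of these, 20 were called Present on at least 6 of the 12 injured-lung arrays. On the control-lung arrays 21 reached that mark, and none was at 0 in either lung. Testing itself required a Present call on at least 6 of 24 arrays, so these counts were largely set by that filter. The summed signal of the 22 markers ranged from 3122.7 to 4914.2 (median 4527.3) on injured-lung arrays and from 3816.6 to 6438.5 (median 4889.2) on control-lung arrays. Earlier results of these data found 3 arrays apart from the rest, all of the injured lung of dog 3 (both apex sites and the base dependent site). The control apex dependent array of dog 1 had the lowest SELE and VCAM1 signals of all 24 arrays. It was the lowest array for 971 probe sets, 4.85% of those tested, beside an even share of 1 in 24. The GAPDH 3′ minus 5′ log2 signal of this dog 1 array, a measure of RNA quality, was 2.43, the highest of the 12 control-lung arrays. The injured base dependent and nondependent arrays of dog 1 had 3.08 and 3.01, with SELE signals of 100.8 and 132.9. For ACTB the low control array had 0.28, beside a control-lung range of -1.55 to 0.74 and median of -1.11. The part of RNA quality in its low signals was not tested. Values without this array or the 3 arrays of dog 3 are given beside several results that they move.

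**Figure D1:**
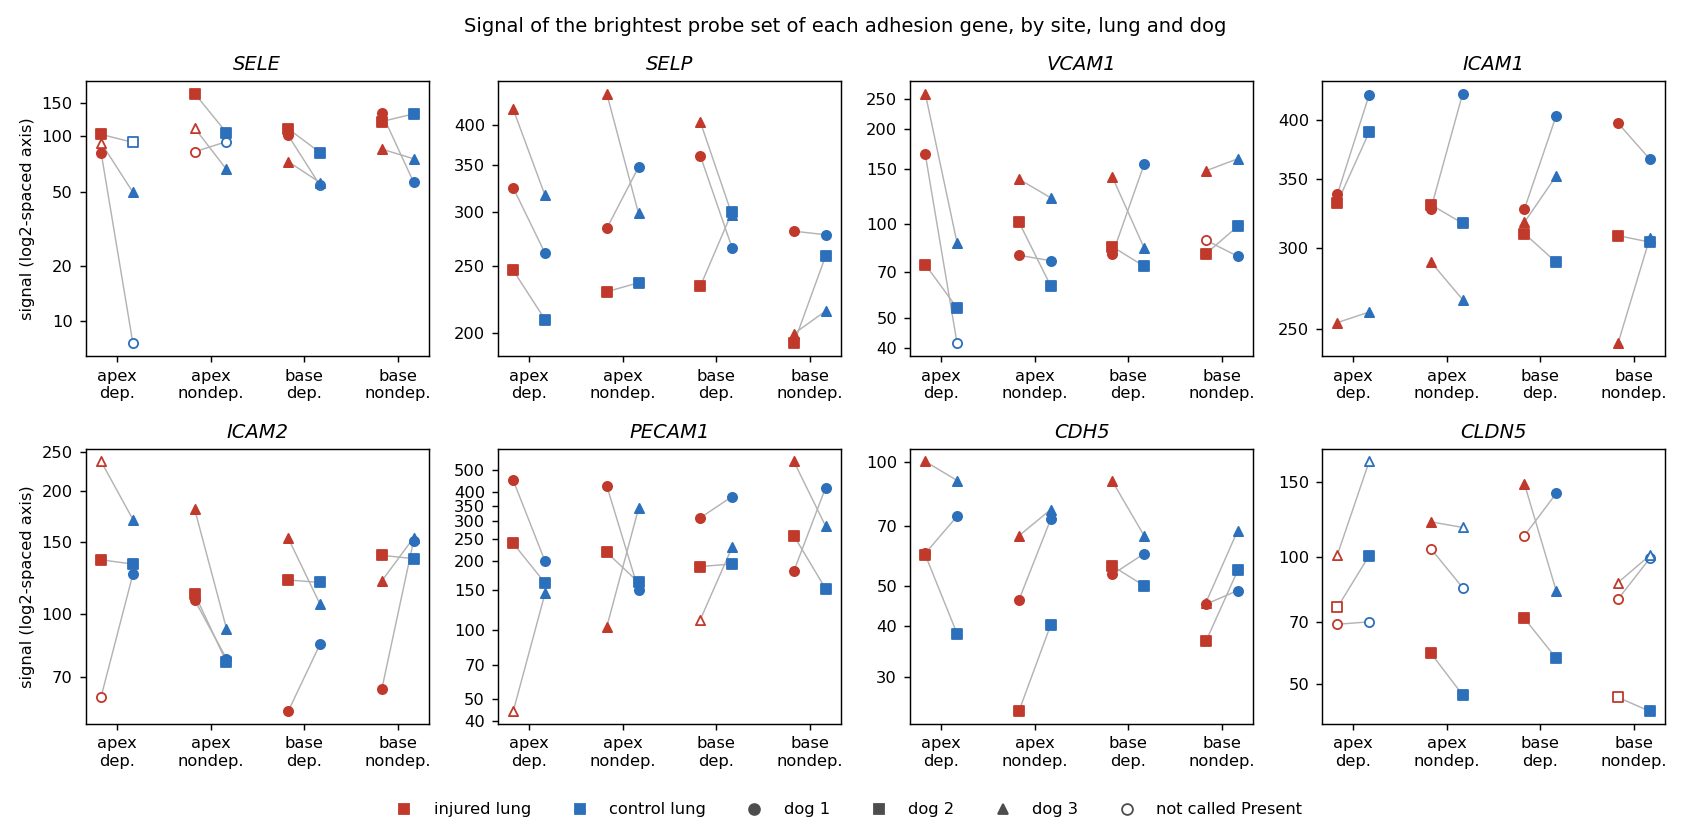
Signal of the brightest probe set of each of the 8 genes on all 24 arrays, on a log2-spaced axis, by site (dep., dependent; nondep., nondependent), with injured-lung arrays in red left of control-lung arrays in blue, a marker shape for each dog, lines joining the 2 lungs of a dog, and open markers where the probe set was not called Present. The SELE and VCAM1 signals of the control apex dependent array of dog 1 (7.6 and 41.5) sit below every other point of their panels.

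SELE encodes E-selectin, which activated endothelium displays to capture rolling leukocytes. Its probe set was called Present on 17 arrays, Marginal on 4 and Absent on 3. The Absent arrays were the control apex dependent and control base dependent of dog 1 and the injured apex dependent of dog 3. At the apex dependent site the signals were 81.3, 102.1 and 91.9 in the injured lungs of dogs 1, 2 and 3, against 7.6, 92.4 and 49.7 in their control lungs. The injured piece was the higher in each dog, as for 18.5% of all tested probe sets, but the groups overlapped, since the control lung of dog 2 was above the injured lung of dog 1. At the apex nondependent site the injured lungs gave 82.2, 169.6 and 110.4, against 93.3, 104.3 and 66.1 in the control lungs. The base dependent pieces gave 100.8, 109.4 and 72.8, against 54.2, 81.5 and 56.1, and at the base nondependent site 132.9, 119.8 and 85.0, against 56.4, 131.6 and 75.4. The injured piece was higher in 3 of 3 dogs at the base dependent site, as 15.9% of all probe sets were. The groups overlapped at these sites too, and the injured piece was the lower in dog 1 at the apex nondependent site and in dog 2 at the base nondependent site.

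In all, SELE was higher in the injured piece in 10 of 12 pairs of pieces from the same dog and site, a count that 3.27% of all tested probe sets reached or passed. The log2 change over the mean of 4 sites was 0.72 ± 0.25 (SE, 12 arrays per lung from 3 dogs), a 1.65-fold difference with a 95% interval of 0.21 to 1.23 on the log2 scale and a limma adjusted p of 0.306. By dog the difference between the lung means was 1.34, 0.28 and 0.54 on the log2 scale for dogs 1, 2 and 3, and 17.4% of all probe sets were likewise higher in 3 of 3 dogs. Part of this size came from the 1 low control array. Without it the log2 change was 0.48 ± 0.14 (limma adjusted p = 0.250), with 9 of 11 pairs higher, and without dog 1 it was 0.41. At the apex dependent site, where that array belongs, the log2 change was 1.48 ± 0.49 (limma adjusted p = 0.638) with it and 0.50 ± 0.32 (limma adjusted p = 0.913) without it. The log2 changes at the other sites were 0.42 (apex nondependent), 0.57 (base dependent) and 0.42 (base nondependent), each with an SE of 0.49.

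SELP encodes P-selectin, which endothelial cells and platelets store in granules and release to the surface. It was called Present on all 24 arrays. At the apex dependent site its signals in dogs 1, 2 and 3 were 324.7, 246.6 and 422.2 in the injured lungs, against 261.1, 209.2 and 316.7 in the control lungs. At the apex nondependent site they were 283.6, 229.6 and 444.9 in the injured lungs, against 348.0, 236.6 and 298.1 in the control lungs. The injured piece was higher in 3 of 3 dogs at the first of these sites, as was the case for 18.5% of all probe sets, and in dog 3 alone at the next. At the base dependent site the injured lungs gave 361.5, 233.8 and 404.8, against 265.8, 299.7 and 296.6, and at the base nondependent site 281.0, 193.2 and 199.5, against 277.7, 258.7 and 215.3. The groups overlapped at every site.

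Over the mean of 4 sites, SELP differed by 0.10 ± 0.12 on the log2 scale (SE, limma adjusted p = 0.842), with 7 of 12 pairs higher in the injured lung. The 3 arrays of dog 3 that stood apart carried high SELP, by 0.70 on the log2 scale over the other 5 arrays of that dog. Without them the log2 change was -0.05. The 6 tested platelet markers summed to 603.4 to 913.1 on injured-lung arrays (median 772.2) and to 634.1 to 970.8 on control-lung arrays (median 839.0). With HBB, a haemoglobin gene of red cells, the list summed to 2247.6 to 17900.2 on injured-lung arrays and to 3513.8 to 20475.6 on control-lung arrays, and HBB made up most of that sum. None of the 7 genes passed. Their part in the SELP values was not tested.

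VCAM1 encodes VCAM-1, an immunoglobulin-superfamily ligand of the leukocyte integrin that holds ITGA4. It was called Present on 22 arrays, Marginal on 1 and Absent on 1, the control apex dependent array of dog 1. At the apex dependent site its signals were 166.3, 74.1 and 260.2 in the injured lungs of dogs 1, 2 and 3, against 41.5, 53.8 and 86.7 in the control lungs. The injured piece was higher in each dog, while the control value of dog 3 exceeded the injured value of dog 2. At the apex nondependent site the injured lungs gave 79.3, 101.3 and 138.8, against 76.2, 63.4 and 121.0 in the control lungs. The base dependent pieces gave 79.8, 84.5 and 140.9, against 154.9, 73.1 and 83.6, and at the base nondependent site 88.6, 80.2 and 147.5, against 78.7, 98.1 and 161.1. The injured piece was thus higher in 3 of 3 dogs at both apex sites and in mixed order at both base sites, and dog 3 held the highest median signal of the 3 dogs (139.85, against 79.55 in dog 1 and 77.15 in dog 2). At the apex nondependent site 12.4% of all probe sets were higher in 3 of 3 dogs, and VCAM1 differed by only 0.06 on the log2 scale in dog 1. The share higher in 3 of 3 dogs at both apex sites was not computed.

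The VCAM1 difference at the apex dependent site was 1.35 ± 0.34 on the log2 scale (SE, 3 arrays per lung), 2.55-fold, with a 95% interval of 0.65 to 2.05. Its limma adjusted p was 0.583, and 0% of all probe sets passed at this site. There 18.5% of probe sets were higher in 3 of 3 dogs. The log2 change was 0.31 at the apex nondependent site, 0.00 at the base dependent site and -0.08 at the base nondependent site, each with an SE of 0.34. The difference between levels in the injury effect, base minus apex, was -0.87 ± 0.34 (limma adjusted p = 0.498), in a comparison in which 0% of probe sets passed. Over the mean of 4 sites the change was 0.39 ± 0.17 (limma adjusted p = 0.434), with 9 of 12 pairs higher in the injured lung, a count that 10.7% of probe sets reached or passed. Without the low control array of dog 1 the log2 changes were 1.16 at the apex dependent site (limma adjusted p = 0.809), 0.35 over the mean of 4 sites and -0.77 for base minus apex. Without the 3 arrays of dog 3 they were 1.14 at the apex dependent site and 0.33 over the mean of 4 sites.

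**Figure D2:**
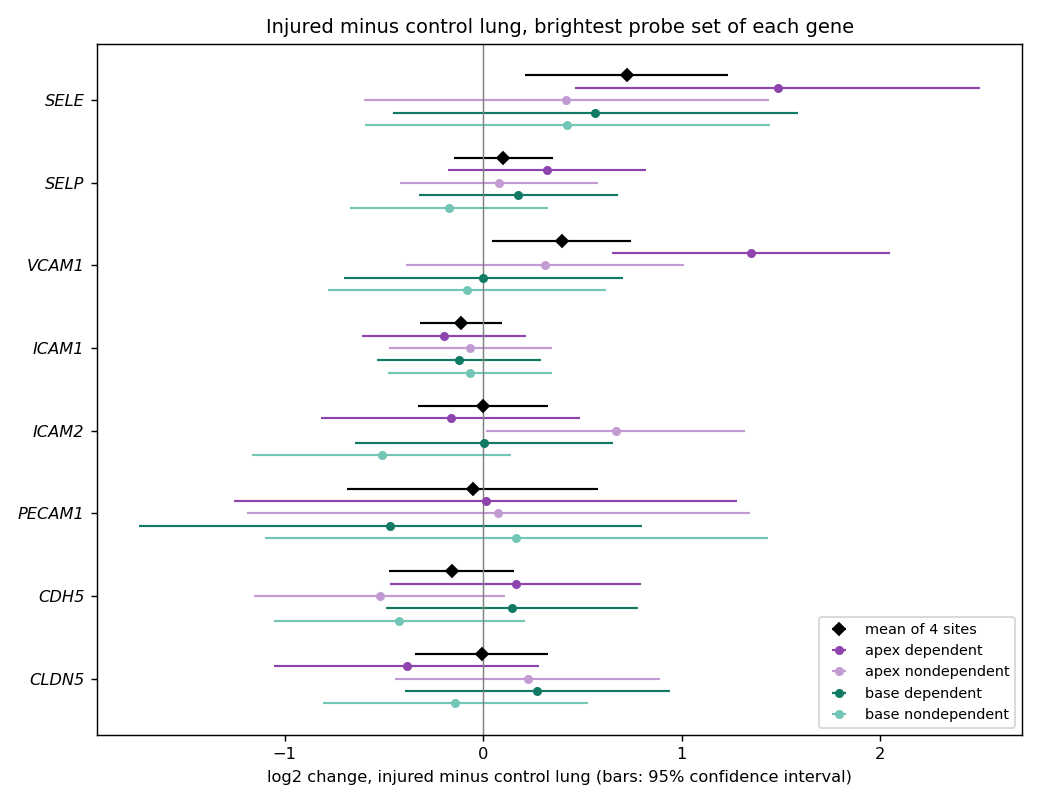
Log2 change, injured minus control lung, of the brightest probe set of each gene averaged over sites and site by site; points are limma estimates (black diamonds for the mean of sites, purple for the apex, green for the base, the paler shade nondependent), bars their 95% intervals, and the line at 0 marks no difference. SELE over the mean of 4 sites (0.72) and SELE (1.48) and VCAM1 (1.35) at the apex dependent site lie farthest above 0, and no point passed the test after adjustment.

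ICAM1 encodes ICAM-1, a ligand of the leukocyte integrins built on ITGB2. Its brightest probe set was called Present on all 24 arrays. In dogs 1, 2 and 3 the signals at the apex dependent site were 338.2, 332.0 and 253.4 in the injured lungs, against 423.1, 389.0 and 259.5 in the control lungs. At the apex nondependent site they were 327.4, 330.4 and 290.4, against 424.3, 316.8 and 266.8. The control piece was the higher in 3 of 3 dogs at the apex dependent site, which 9.65% of probe sets also showed, and dog 1 had the highest control values. At the base dependent site the injured lungs gave 327.3, 309.6 and 317.6, against 403.8, 290.2 and 352.6, and at the base nondependent site 397.0, 308.2 and 241.8, against 366.0, 303.7 and 306.5. The 2 lungs overlapped at each site. The log2 change over the mean of 4 sites was -0.11 ± 0.10 (SE, limma adjusted p = 0.781), with a 95% interval of -0.32 to 0.09.

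ICAM2 encodes a second ligand of these integrins, which is present on endothelium at rest. Its brighter probe set gave 62.8, 135.9 and 236.8 in the injured lungs of dogs 1, 2 and 3 at the apex dependent site, against 125.4, 132.7 and 170.6 in the control lungs. This probe set was called Present on 22 arrays and Absent on 2, the injured apex dependent arrays of dogs 1 and 3. At the apex nondependent site it gave 108.3, 112.1 and 180.8 in the injured lungs, against 77.8, 76.3 and 92.2 in the control lungs. Every injured value at the apex nondependent site lay above every control value, which was so for 3.61% of all probe sets, and 12.4% were higher there in 3 of 3 dogs. The base dependent pieces gave 57.8, 121.3 and 153.6 in the injured lungs, against 84.4, 119.6 and 105.8, and the base nondependent pieces 65.4, 139.4 and 120.6, against 151.2, 136.8 and 153.8. At both base sites the order differed between dogs. The log2 change was 0.67 ± 0.31 at the apex nondependent site (SE, limma adjusted p = 0.917), 0.00 ± 0.31 at the base dependent site, -0.51 ± 0.31 at the base nondependent site and -0.00 ± 0.16 over the mean of 4 sites. By dog the lung means differed by -0.57, 0.16 and 0.41 in dogs 1, 2 and 3. Without the 3 arrays of dog 3 that stood apart, the log2 change was 0.51 at the apex nondependent site and -0.19 over the mean of 4 sites.

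PECAM1 encodes CD31, a homophilic adhesion molecule of endothelial junctions that leukocytes and platelets also carry. Its brightest probe set gave 452.0, 427.6, 309.5 and 180.7 in the injured lung of dog 1 at the apex dependent, apex nondependent, base dependent and base nondependent sites, against 199.8, 149.3, 383.5 and 419.6 in its control lung. In dog 2 the injured lung gave 239.3, 218.3, 189.4 and 258.6, against 160.4, 161.5, 194.3 and 151.3 in the control lung. In dog 3 it gave 44.0, 103.0, 110.8 and 546.5, against 144.4, 340.2, 230.0 and 284.5. The 3 lowest signals of all 24 arrays were those of the 3 injured-lung arrays of dog 3 that stood apart, 2 of them called Absent, and the fourth injured piece of that dog had the highest. The 3 arrays minus the other 5 arrays of dog 3 gave -1.82 on the log2 scale. The log2 change over the mean of 4 sites was -0.05 ± 0.30 (SE, limma adjusted p = 0.977) with them and 0.52 ± 0.21 (limma adjusted p = 0.531) without them. Leukocyte markers summed to 2073.7 to 2948.2 on injured-lung arrays and to 2019.8 to 2866.8 on control-lung arrays, and 0 of 18 passed.

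CDH5 encodes VE-cadherin, the cadherin of endothelial adherens junctions, and was called Present on all 24 arrays. At the apex dependent site its signals in dogs 1, 2 and 3 were 60.1, 59.6 and 100.6 in the injured lungs, against 74.0, 38.3 and 90.4 in the control lungs. At the apex nondependent site they were 46.2, 24.8 and 66.3, against 72.7, 40.2 and 76.8. The nondependent piece of the injured lung was the lower in each dog, while the dependent pieces were in mixed order. From the base dependent site the injured lungs gave 53.4, 56.0 and 90.0, against 60.0, 50.1 and 66.3, and at the base nondependent site 45.2, 36.7 and 45.6, against 48.8, 54.6 and 68.3. The base nondependent piece was again the lower in the injured lung of each dog, and the 3 injured values there (at most 45.6) lay below the 3 control values (at least 48.8), as was so for 6.74% of all probe sets. At these nondependent sites 10.3% (apex) and 19.3% (base) of all probe sets were lower in 3 of 3 dogs.

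The CDH5 log2 change was -0.52 ± 0.30 at the apex nondependent site, -0.42 ± 0.30 at the base nondependent site, 0.16 ± 0.30 at the apex dependent site and 0.14 ± 0.30 at the base dependent site (SE, 3 arrays per lung). Over the mean of 4 sites it was -0.16 ± 0.15 (limma adjusted p = 0.802), or -0.26 without the 3 arrays of dog 3. CLDN5, which encodes the endothelial tight-junction protein claudin-5, was called Present on only 10 of 24 arrays. Its signals ranged from 46.6 to 148.5 (median 83.15) on injured-lung arrays and from 43.2 to 167.7 (median 91.80) on control-lung arrays. The log2 change was -0.01 ± 0.16 over the mean of 4 sites (limma adjusted p = 0.995) and between -0.39 and 0.27 at single sites, with 6 of 12 pairs higher in the injured lung. The lowest of these, at the apex dependent site, was -0.79 ± 0.32 without the low control array of dog 1 (limma adjusted p = 0.842).

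The position of the piece went with SELE in 1 direction throughout, a pattern noticed after the values were seen. SELE was lower in the dependent than in the nondependent piece of the same lung and level in 12 of 12 pairs, which held for 8 of 20034 probe sets (0.0399%). The 6 injured-lung pairs differed by -0.73 to -0.02 on the log2 scale and the 6 control-lung pairs by -3.62 to -0.06. Neither limma estimate passed: it was -0.29 ± 0.35 in the injured lung (adjusted p = 0.946) and -0.90 ± 0.35 in the control lung (adjusted p = 0.990), or -0.40 in the control lung without the low array of dog 1. The median over the 12 pairs was -0.33. Among all probe sets, 1.5% were lower in the dependent piece in 6 of 6 injured-lung pairs and 2.1% in 6 of 6 control-lung pairs.

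CDH5 ran the other way in the injured lung. It was higher in the dependent piece in 6 of 6 injured-lung pairs, by 0.24 to 1.26 on the log2 scale, and in 3 of 6 control-lung pairs, which ranged from -0.12 to 0.30. Of all probe sets, 2.11% were higher in the dependent piece in 6 of 6 injured-lung pairs. The limma estimate of dependent minus nondependent was 0.68 ± 0.22 in the injured lung (adjusted p = 0.918) and 0.05 ± 0.22 in the control lung (adjusted p = 0.999). The difference of the 2 lungs in this contrast was 0.63 ± 0.30 (limma adjusted p = 0.851), so that neither the contrast nor its difference between lungs passed. Leaving out each dog in turn gave 0.55 to 0.86 for the injured lung. SELP was higher in the dependent piece in 5 of 6 injured-lung pairs (log2 difference 0.31 ± 0.17, limma adjusted p = 0.918) and in 3 of 6 control-lung pairs (0.02 ± 0.17). The injured base pair of dog 3 differed by 1.02 and the other injured-lung pairs by -0.08 to 0.36. Without the 3 arrays of dog 3 that stood apart, the injured-lung value was 0.27. At least 5 of 6 injured-lung pairs were higher in the dependent piece for 14.4% of all probe sets.

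VCAM1 was higher at the base than at the apex in 3 of 6 injured-lung pairs and in 5 of 6 control-lung pairs, and 12.1% of probe sets were higher at the base in at least 5 of 6 control-lung pairs. The log2 difference, base minus apex, was -0.31 ± 0.24 in the injured lung (limma adjusted p = 0.757) and 0.56 ± 0.24 in the control lung (limma adjusted p = 0.945). Without the low control array of dog 1 the control-lung value was 0.47 ± 0.25; the pair with that array differed by 1.90 and the other 5 control-lung pairs by -0.05 to 0.63. SELP was lower at the base in 5 of 6 injured-lung pairs, at -0.23 ± 0.17 (limma adjusted p = 0.734), and 16.9% of probe sets were lower at the base in at least 5 of those 6 pairs. Most of this size came from 1 nondependent pair of dog 3, at -1.16, and without the 3 arrays of that dog the SELP value was -0.08 ± 0.18 (limma adjusted p = 0.946). Across all probe sets 7 (0.0349%) passed for level in the injured lung and 0 in the control lung, where 1033 had an unadjusted p under 0.05.

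**Figure D3:**
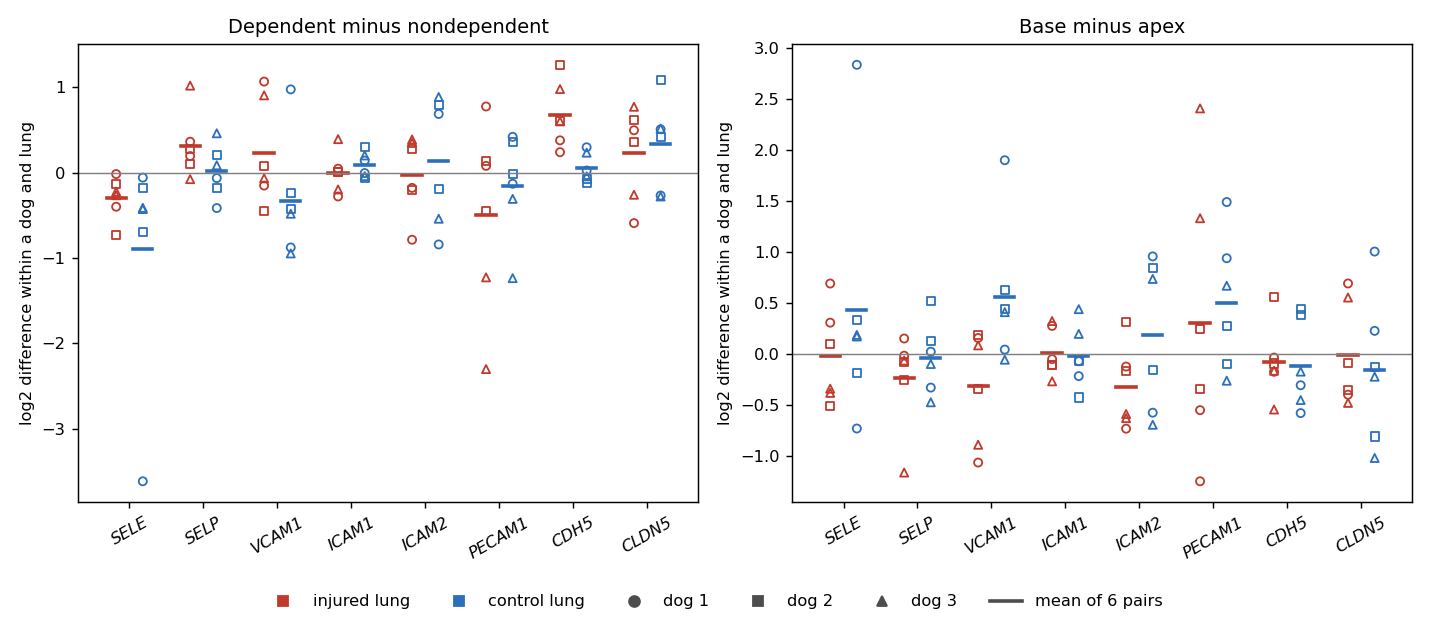
Log2 differences within a dog and lung for the brightest probe set of each gene, dependent minus nondependent on the left and base minus apex on the right, with the 6 injured-lung pairs in red left of the 6 control-lung pairs in blue, a marker shape for each dog, and horizontal bars for the means. On the left all 12 SELE points lie below 0, and the 6 injured-lung points of CDH5 lie above 0 while its control-lung points lie on both sides.

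The 8 groups of each gene were put in order of their mean level. Mean log2 SELE signal was highest in the injured apex nondependent group at 6.85 ± 0.53 and lowest in the control apex dependent group at 5.03 ± 1.88 (SD, n = 3). VCAM1 was highest at 7.20 ± 0.92 in the injured apex dependent group and lowest at 5.85 ± 0.54 in the control apex dependent group. CDH5 was highest in the injured apex dependent group (6.15 ± 0.43) and lowest in the injured base nondependent group (5.40 ± 0.18). Neighbours in the order lay closer, and the SD of a group includes the differences between dogs. For 7 genes each of the 7 steps between neighbouring group means was smaller than the larger SD of the 2 groups. The exception was ICAM2, where 1 of 7 steps exceeded it: the control apex nondependent group, at 6.35 ± 0.15, lay 0.32 below the next.

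Different probe sets of a gene gave different values. Of the 3 ICAM1 probe sets, the brightest differed by -0.11 between injured and control lung over the mean of 4 sites, and the others by 0.19 ± 0.21 (202638_s_at) and 0.22 ± 0.30 (215485_s_at), the last higher in 3 of 3 dogs at the base nondependent site, as 12.3% of all probe sets were. Single pairs of dog 3 stood far out in both. For 202638_s_at the control apex nondependent piece of dog 3 gave 15.2, called Absent, and its pair differed by 2.43. By dog the lung means of 202638_s_at differed by 0.05, -0.07 and 0.59. For 215485_s_at the pairs of dog 3 differed by -2.35 at the apex dependent and 1.79 at the base dependent site. Without the 3 arrays of dog 3 these 2 probe sets stood at 0.09 and 0.41. The log2 signals of the 3 ICAM1 probe sets, taken as deviations from the mean of each dog, correlated over the 24 arrays at -0.03 to 0.19, and over 21 arrays, without those 3 arrays, at -0.17 to 0.08. For ICAM2 the dimmer probe set, 213620_s_at, stood at 0.03 ± 0.20 over the mean of 4 sites, at -0.52 ± 0.39 at the apex nondependent site (-0.28 without the 3 arrays of dog 3) and at 0.69 ± 0.39 at the base dependent site, while the brighter gave 0.67 and 0.00 at those sites, and the 2 correlated at 0.09. For PECAM1, 208982_at stood at -0.23 ± 0.13 over the mean of 4 sites (limma adjusted p = 0.621) and at -0.59 ± 0.27 at the base dependent site (limma adjusted p = 0.778). Its signals at the base dependent site were 143.2, 148.1 and 152.9 in the injured lungs, against 326.2, 196.4 and 171.1 in the control lungs, which did not overlap; 3.43% of all probe sets lay wholly below the control lung there and 11.6% were lower in 3 of 3 dogs. It correlated with the brightest probe set at 0.37, and at 0.22 without the 3 arrays of dog 3. A further PECAM1 probe set, 208981_at, was called Absent on all 24 arrays and was not tested. How well each human probe matches the dog transcript was not tested.

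**Figure D4:**
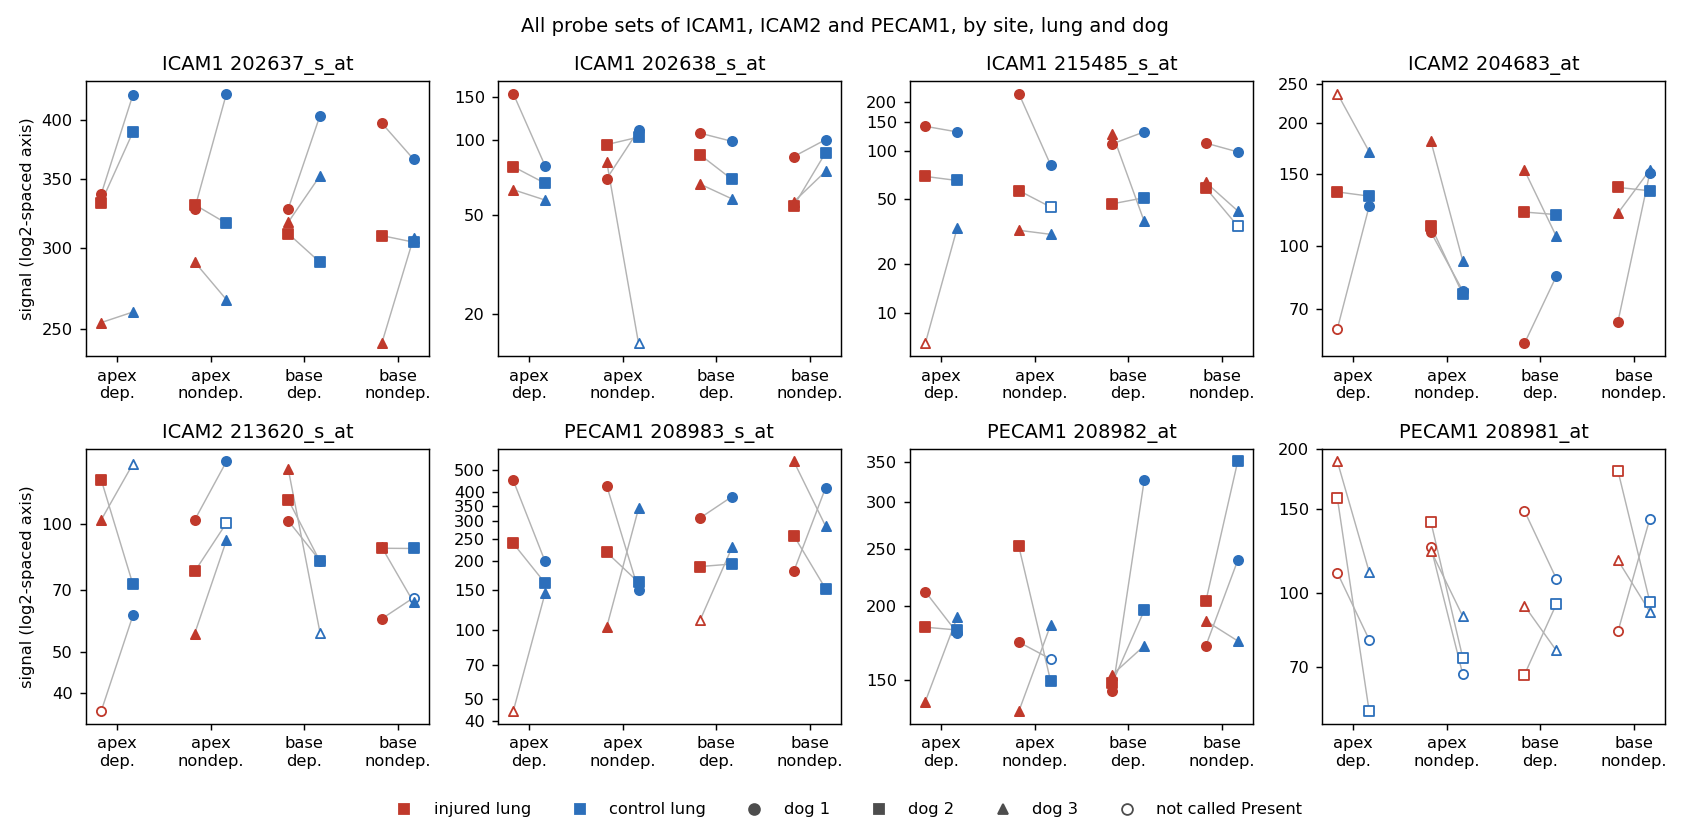
Signal of each of the 3 ICAM1, 2 ICAM2 and 3 PECAM1 probe sets on all 24 arrays, on a log2-spaced axis, by site, with injured-lung arrays in red left of control-lung arrays in blue, a marker shape for each dog, lines joining the 2 lungs of a dog, and open markers where the probe set was not called Present. At the base dependent site the injured-lung signals of 208982_at (143.2 to 152.9) sit below its control-lung signals (171.1 to 326.2), while all points of 208981_at are open.

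Across the 24 arrays, with each dog's mean removed, the 28 correlations between pairs of the 8 genes ran from -0.68 (SELP with PECAM1) to 0.57 (SELE with VCAM1), with 13 above 0 and a median of -0.00. These arrays share lungs and dogs, so the values are descriptions. Without the low control array of dog 1 the correlation of SELE with VCAM1 was 0.31 over 23 arrays. Without the 3 arrays of dog 3 that of SELP with PECAM1 was -0.40 over 21 arrays, and that of VCAM1 with PECAM1 moved from -0.02 to 0.54. The 28 values then ran from -0.48 (ICAM1 with PECAM1) to 0.58 (SELE with VCAM1), with the low array of dog 1 still included. By the same measure, the genes nearest to SELE were LINC01949 (0.88), ZNF669 (0.86) and CFLAR (0.85), which stood at 0.49, 0.52 and 0.40 without that array. Nearest to VCAM1 were NOD2 (0.75, and 0.72 without that array), TMEM187 (0.75) and TGFB2 (0.73). Nearest to SELP were GNAO1 (0.89), HAUS5 (0.84) and ETV1 (0.82), and nearest to CDH5 were RPL38 (0.71), OR2S2 (0.68) and GLI1 (0.67). PECAM1 was closest to TOMM22 (0.88), UBAP2L (0.87) and GNB1 (0.87), and ICAM1 to STRN (0.74), CHRD (0.70) and TRPM4 (0.68). ICAM2 was closest to SULT4A1 (0.73), RCN3 (0.73) and TOR1A (0.72), and CLDN5 to ZNF219 (0.71), SHMT2 (0.69) and RAD50 (0.66). Without the 3 arrays of dog 3 the SELP values were 0.82, 0.68 and 0.78 and the PECAM1 values 0.75, 0.77 and 0.79.

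The genes around the members on the same route were read from lists, with the brightest probe set of each gene and the mean of 4 sites. Of 20 tested ligands and integrins on the leukocyte side, 15 were higher and 5 lower, and 0 passed, with a median log2 change of 0.09 beside 0.03 over all probe sets, of which 54.7% were higher. The smallest p-values in it were those of GLG1, a ligand of E-selectin, at -0.41 ± 0.18, and of ITGAL, the alpha chain of the integrin that binds ICAM-1, at 0.38 ± 0.19 (SE, limma adjusted p = 0.468 and 0.551). Of 25 genes of the NF-kB and cytokine route that induces adhesion molecules, 15 were higher, 10 lower and 0 passed, with a median of 0.06. TNFRSF1A, the main TNF receptor, stood at 0.52 ± 0.17 (limma adjusted p = 0.279), and NFKBIA, the inhibitor that NF-kB itself induces, at 0.28 ± 0.13 (limma adjusted p = 0.504).

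Of 15 other adhesion molecules of vessels, 6 were higher, 9 lower and 0 passed (median -0.01). ALCAM, an immunoglobulin-superfamily member that binds CD6 on T cells, stood at -0.73 ± 0.23 (limma adjusted p = 0.259), and PVR, a nectin-like molecule of cell contacts, at -0.27 ± 0.10. Of 15 junction partners of CDH5 and CLDN5, 6 were higher, 9 lower and 0 passed (median -0.16). PTPRB, the phosphatase that acts on VE-cadherin, stood at -0.43 ± 0.18, and CLDN18, a claudin of alveolar epithelium, at -1.35 ± 0.62 (limma adjusted p = 0.414 and 0.478). At the base nondependent site, where 81 of all probe sets passed (0.404%), 0 of the 8 members and 0 genes of these lists passed, and 2 of the 8 members were higher, where 42% of all probe sets were.

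Among the markers of cells the pieces could hold, 1 gene passed. RAMP2, an endothelial co-receptor for adrenomedullin, fell by 0.98 on the log2 scale in the injured lung (SE 0.20, limma adjusted p = 0.0434), with a median signal of 420 in injured lungs and 847.2 in control lungs. Its log2 change lay between -1.05 and -0.78 under 13 alternatives, and it passed in 5 of them; it did not pass with any 1 dog left out (limma adjusted p = 0.265, 0.530 and 0.0506 without dogs 1, 2 and 3) or without the 3 arrays of dog 3 (0.193). The other endothelium markers gave 12 higher and 9 lower. Epithelium markers gave 6 higher and 9 lower of 15, with CLIC3 at -1.18 and SFTPC at -0.55, and smooth muscle and fibroblast markers gave 2 higher and 10 lower of 12, with MYLK at -0.67 and COL1A2 at -0.55. Leukocyte markers gave 10 higher and 8 lower of 18, with MARCO at -0.52 and FCGR2A at 0.38. Platelet and red cell markers gave 1 higher and 6 lower of 7, with HBB and ITGA2B both at -0.51, and mesothelium markers gave 1 higher and 2 lower of 3, with GPM6A at -1.04 and KRT19 at -0.29. Apart from RAMP2, no marker named here passed, and their part in the members' values was not tested.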

How the data were processed

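Per the labels, each of the 24 samples is 1 piece of lung of 1 of 3 dogs, grouped by lung, level and position. For each array the authors deposited an intensity (linear, 1 value a probe set) with a detection call. The array is part A of the human U133 set, per the file headers. Its software is not given in the sources used here. Every array had a 2% trimmed mean of the deposited intensity between 149.94 and 149.95. Signals were rescaled to a common trimmed mean, 3 signals of 0 were set to 0.1, and log2 was taken.

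Probe sets called Present on at least 6 arrays were tested (20034), leaving out 68 control probe sets and 11 with no call. Genes were named from the platform's annotation, and the probe set with the highest mean log2 signal led a gene. limma 3.58.1 in R 4.3.3 fitted all 24 arrays with 8 groups and the dog as block (eBayes with trend), and p-values were adjusted by Benjamini-Hochberg at 0.05 over all tested probe sets. The procedure was checked on simulated data. The pieces of a dog come from 1 animal, per the titles. The file headers give the dogs other numbers than the titles, but the 3 header numbers and the 3 titled dogs match one to one, 8 arrays each, so the block is the same by either. Correlations of deviations from group means had a median of 0.236 (lowest 0.007) for arrays of the same dog and -0.136 for arrays of different dogs. Deviations cancel within a group by construction, which pulls the value for different dogs negative. Whole lungs were lavaged, yet the fit takes pieces of a lung as units, and an alternative averages them per dog. The number of arrays limits the precision, with a median SE of 0.18 over the mean of 4 sites and 0.36 at a site.

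Named genes were all member probe sets, from each list the genes that passed or else the 2 with the smallest p, and the 3 nearest genes by correlation. The members and lists were chosen with earlier results of these data known. Alternatives changed the block, unit, scaling, filter, offset, RNA quality covariates and arrays used. Leaving out the low control array, and the 3 arrays of dog 3 in contrasts of level and in correlations, was chosen after seeing the data. Also not planned were alternatives for SELE and VCAM1 at the apex dependent site, for RAMP2 and for CDH5 by position in the injured lung. Nor was leaving out the 3 arrays of dog 3 for the dimmest ICAM1 and ICAM2 probe sets. GAPDH 3′ minus 5′ log2 signal was 1.33 to 3.08 on injured-lung and 1.32 to 2.43 on control-lung arrays. For ACTB it was -1.81 to 0.19 on injured-lung and -1.55 to 0.74 on control-lung arrays.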

Additional observations from a re-analysis of the deposited data

Results flagged for a closer look

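A few probe sets moved one way in every dog at 1 site and the other way in every dog at another, and in each case the difference between the sites was not tested. The ICAM1 probe set 202638_s_at was higher in the injured lung in 3 of 3 dogs at the apex dependent site (by 0.14 to 0.97 on the log2 scale) and lower in 3 of 3 at the base nondependent site (-0.71 to -0.23), 0.89 apart in the mean. The same probe set was also higher in 3 of 3 dogs at the base dependent site (0.11 to 0.33), 0.66 above the base nondependent site. The ICAM2 probe set 213620_s_at was higher in 3 of 3 dogs at the base dependent site (0.31 to 1.27) and lower in 3 of 3 at the apex nondependent site (-0.73 to -0.38), 1.21 apart. CLDN5 was higher in 3 of 3 dogs at the apex nondependent site (0.04 to 0.33) and lower in 3 of 3 at the apex dependent site (-0.73 to -0.02), 0.61 apart. At the apex dependent site CLDN5 was called Present on 1 of 3 control-lung arrays and 0 of 3 injured-lung arrays. Of all probe sets, between 9.65% and 19.3% had the same direction in 3 of 3 dogs at a given site and direction. The cases above were searched for over all pairs of sites. The share of all probe sets with such an opposite pair of sites was not computed.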

How the results depend on the processing

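Over 219 member results under alternatives, 0 passed, 202 kept their sign, and the smallest limma adjusted p was 0.185 (SELE, mean of 4 sites, log2(signal + 32)). Changing the block, the unit or the detection filter leaves each log2 change as it was, so no sign could reverse there. The same held at the base nondependent site without the 3 arrays of dog 3. The count of kept signs is therefore partly fixed by the design. Without the block for the dog (no replicate block) 6 probe sets passed over the mean of 4 sites in place of 42, 0 at the base nondependent site in place of 81, and 0 for base minus apex in the injured lung in place of 7. Over the mean of 4 sites 6 passed with pieces averaged per dog and 91 with a random block for the lung, whose estimated correlation was -0.0396. At the base nondependent site 43 passed after quantile normalization, 9 with RNA quality covariates and 151 without the 3 arrays of dog 3. At the base dependent site 1 passed with no filter on detection. Leaving out 1 dog in turn gave 0 to 26 calls over the mean of 4 sites, 0 to 3 at the base dependent site, 0 to 134 at the base nondependent site, 0 to 32 for the level difference of the injury effect and 0 to 102 for base minus apex in the injured lung.

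Sign changes concerned values near 0, apart from PECAM1 and ICAM2. Over the mean of 4 sites, SELP ranged from -0.013 to 0.23 with a dog left out, and stood at -0.051 without the 3 arrays of dog 3. ICAM2 stood at 0.012 with log2(signal + 32) and 0.11 with the covariates, with -0.20 to 0.28 when a dog was left out. PECAM1 stood at 0.52 without the 3 arrays, with -0.30 to 0.36 when a dog was left out, and CLDN5 at 0.020 with the covariates and -0.053 to 0.035 when a dog was left out. At the base nondependent site, VCAM1 stood at 0.031 after quantile normalization and 0.072 with the covariates, and CLDN5 at 0.055 and 0.0079. There, with a dog left out, VCAM1 ranged from -0.21 to 0.022, ICAM1 from -0.16 to 0.069 and PECAM1 from -0.22 to 0.86. The causes were not tested. Requiring Present on at least 12 arrays gave no CLDN5 value. The number of arrays limits all of these.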
